A study of Mus musculus with 8 samples.

Results

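Integrins, laminins, collagens and tenascins are the receptors and the fibrous proteins through which cells hold to the extracellular matrix. Integrins are membrane receptors built of an alpha and a beta subunit, and they join matrix proteins outside the cell to the cytoskeleton inside it. Laminins are trimers of an alpha, a beta and a gamma chain and form the basement membrane together with type IV collagen. In the brain, basement membranes surround blood vessels and line the surface under the meninges, while tenascins lie in the matrix between neural cells, and tenascin R is a part of perineuronal nets.

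The genes were taken by name from a deposited table of read counts, as every symbol that is Col or Lam followed by a chain number, Itga or Itgb followed by a number, Tnc or Tnr. This gave 64 of the 17613 genes of the table, namely 10 integrin alpha subunits, 7 integrin beta subunits, 2 tenascins, 11 laminin chains and 34 collagen chains. Integrin subunits named by a letter, such as Itgav and Itgam, lie outside this name rule and are described with the partner genes. Polyadenylated RNA was sequenced from the brain of C57BL/6 mice in 4 libraries labelled Uhrf2 knockout (KO) and 4 labelled wild type (WT). The product of Uhrf2 is a nuclear reader of modified cytosine, and the title of the series links it to local 5-methylcytosine and to seizures. The labels do not state the knockout allele, age or sex, nor whether each library is a separate animal, so that p-values measure the spread between these libraries, which may be technical.

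Libraries held between 11891354 and 19773910 counts, so that a count of 3 equals 0.152 to 0.252 CPM (counts scaled by library total), and these limits cover counting error only. The level of the targeted gene went against the labels. Uhrf2 (chromosome 19, 30030513 to 30093722 on GRCm38) stood at 86.4, 88.6, 88.4 and 91.8 CPM in the libraries labelled KO, against 58.0, 47.7, 57.2 and 58.9 CPM in the libraries labelled WT. It was higher in every library labelled KO (log2 fold change 0.68, SE 0.06, edgeR adjusted p = 5.45e-06). The exact permutation p was 0.0286, which any gene without overlap between the groups gives. Counts per gene do not separate a deleted part from the rest. Every direction below therefore rests on the labels. Both libraries numbered 1 lay apart from the other 6 on the second principal component, which held 19.8% of the variance. Without this pair Itga8 and Itga4 were still called lower, and Tnc was not (edgeR adjusted p = 0.0749). Neuronal markers were abundant, with a summed level of 8094 to 8853 CPM over 10 genes in the libraries labelled KO and 7863 to 8397 CPM in those labelled WT.

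The promoters of 3 genes are shown first because Itga8, Itga4 and Tnc were the members that passed the test between the groups, and because Uhrf2 protein reads modified cytosine. Each is the 250 bases before the start of the gene, 5′ to 3′ on the strand of the gene, from RefSeq on GRCm38.p6, with every CG dinucleotide, the usual site of cytosine methylation, in capitals. For Tnc the first of 2 listed starts is used. The windows lie at chr2:12301945-12302194 (minus strand), chr2:79255176-79255425 (plus strand) and chr4:64047016-64047265 (minus strand).
Itga8: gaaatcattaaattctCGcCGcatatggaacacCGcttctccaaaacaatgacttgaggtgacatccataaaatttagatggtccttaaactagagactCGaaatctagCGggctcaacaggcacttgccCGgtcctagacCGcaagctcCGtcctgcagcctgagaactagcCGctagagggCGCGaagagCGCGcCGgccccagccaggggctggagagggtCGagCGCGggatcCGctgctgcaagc
Itga4: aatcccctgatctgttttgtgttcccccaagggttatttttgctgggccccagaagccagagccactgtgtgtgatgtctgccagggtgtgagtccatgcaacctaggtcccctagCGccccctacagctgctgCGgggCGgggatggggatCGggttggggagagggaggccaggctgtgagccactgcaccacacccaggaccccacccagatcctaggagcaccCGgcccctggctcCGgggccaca
Tnc: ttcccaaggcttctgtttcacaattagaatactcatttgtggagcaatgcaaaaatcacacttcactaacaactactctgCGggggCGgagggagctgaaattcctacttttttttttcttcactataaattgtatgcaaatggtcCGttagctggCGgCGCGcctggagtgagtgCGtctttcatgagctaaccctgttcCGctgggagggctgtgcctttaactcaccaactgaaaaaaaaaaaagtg

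The Itga8 promoter held 18 CG dinucleotides, and 21.7% of the 32851 windows of this length in the table held at least as many. The windows of Itga4 and Tnc held 6 and 8, a number reached by 50.4% and 43.0% of windows. The letters GGGCGG, which hold a CG themselves, were searched on both strands like the others. They occurred in the windows of Itga4 and Tnc and in 32.7% of all windows, while TATAAA occurred in that of Tnc and in 12.4% of all windows. The letters TGANTCA, present in 6.75% of windows, were not in the 3 windows. Methylation was not measured in these libraries. Of the 64 members, 47 were matched to a promoter by symbol, with 0 to 31 CG dinucleotides in a window and a median of 10.

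Integrin alpha 8 and alpha 4 and tenascin C were lower in the libraries labelled KO, and no member was higher by the same test. All 64 members passed the filter on low counts, so every one was tested. Of these, 3 fell, 0 rose and 61 did not pass an adjusted p of 0.05 (edgeR, quasi-likelihood, Benjamini-Hochberg over 15902 tested genes). The 3 falls are 4.69% of the members, where 1.43% of all tested genes passed, 0.289% as lower and 1.14% as higher. DESeq2 and limma-voom also called 0 members higher. DESeq2 called 3 members lower and limma-voom 4. Over all genes, DESeq2 called 69 of 13507 lower and limma-voom 53 of 15902. In either direction they called 2.35% and 1.55% of all genes. At an unadjusted p under 0.05 there were 12 members (18.8%, against 12.6% of all tested genes). Of these 3 were higher (4.69%, against 6.45% of all tested genes) and 9 lower (14.1%, against 6.16%). Log2 fold changes ran from -0.75 for Itga8 to 0.55 for Itga11. Negative log2 fold changes were found for 48 of the 64 (75.0%), against 52.0% of all tested genes, and the median was -0.063 over the members and -0.0049 for all tested genes. In bulk tissue, fewer cells of a type and less RNA per cell cannot be told apart.

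**Figure D1:**
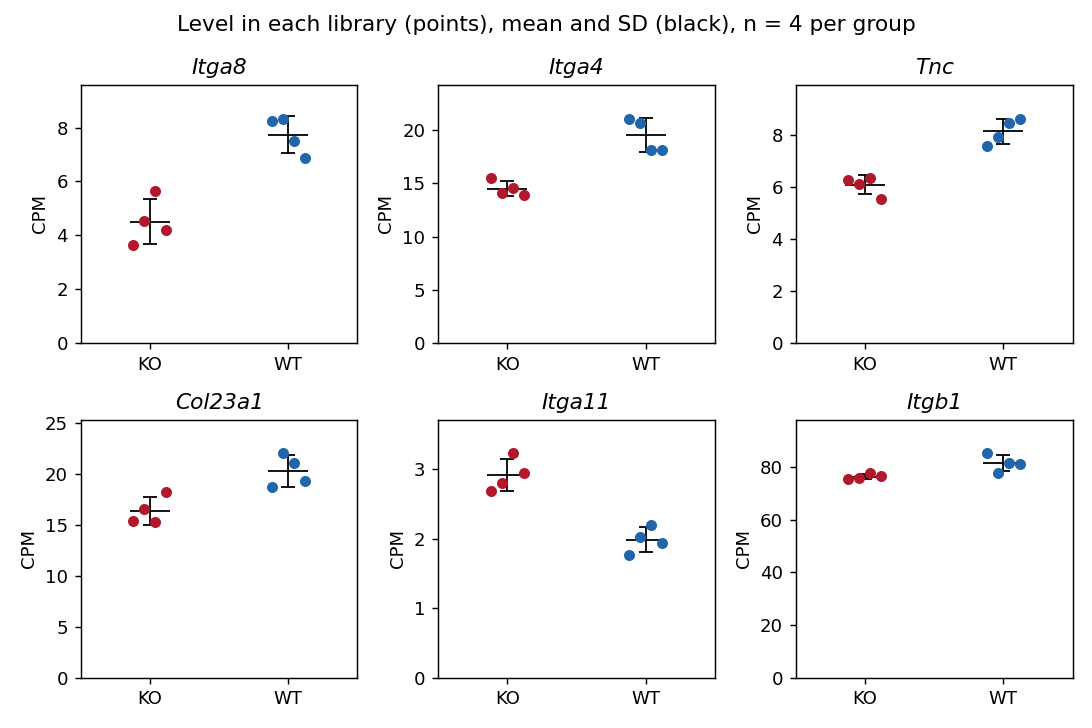
CPM on linear axes from 0 in each of the 8 libraries for 6 members, with the libraries labelled KO in red on the left, those labelled WT in blue on the right, and the mean ± SD in black (n = 4 each). Itga8, Itga4, Tnc, Col23a1 and Itgb1 lie lower in all 4 libraries labelled KO and Itga11 higher, and of these Itga8, Itga4 and Tnc passed the adjusted threshold.

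Integrin alpha 8 pairs with beta 1 and is a receptor for nephronectin, fibronectin, vitronectin and tenascin C. Itga8 stood at 3.65, 4.52, 5.66 and 4.21 CPM in the libraries labelled KO, against 8.24, 8.33, 7.49 and 6.86 CPM in those labelled WT. The groups did not overlap, and the highest library labelled KO lay below the lowest labelled WT. The means were 4.51 ± 0.84 CPM (labelled KO) and 7.73 ± 0.69 CPM (labelled WT; SD, n = 4 each), a fold of 0.593, KO over WT. Itga8 fell by 0.75 on the log2 scale (SE 0.13, adjusted p = 0.00438 by edgeR), and passed without any 1 of the 8 libraries (adjusted p 0.0021 to 0.0256). The exact two-sided permutation test over 70 ways to choose 4 of 8 libraries gave p = 0.0286, the smallest that it can give. Groups that do not overlap always give this p, and 7.67% of all tested genes had such groups. It therefore adds nothing to the lack of overlap. Itga8 (chromosome 2, 12106632 to 12301922, minus strand) shares 372 exonic bases, 5.05% of its exonic length, with E030013I19Rik on the opposite strand. That gene stood at 0.679 ± 0.354 CPM in the libraries labelled KO and 1.26 ± 0.319 CPM in those labelled WT (SD, n = 4 each; log2 fold change -0.80, SE 0.33, adjusted p = 0.316). The kit marks strand, but the strand setting of the counting is not stated, so whether reads of the pair were kept apart is not known.

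Integrin alpha 4 pairs with beta 1 or beta 7 and binds VCAM1 on vessels and fibronectin. Itga4 stood at 15.5, 14.1, 14.5 and 13.9 CPM in the libraries labelled KO, against 21.1, 20.7, 18.1 and 18.2 CPM in those labelled WT. Here too the groups did not overlap, with a gap between 15.5 and 18.1 CPM. The means were 14.5 ± 0.71 CPM (labelled KO) and 19.5 ± 1.59 CPM (labelled WT; SD, n = 4 each), a fold of 0.745. Itga4 fell by 0.42 on the log2 scale (SE 0.08, adjusted p = 0.00596 by edgeR), and passed without any 1 library (adjusted p 0.0066 to 0.033). The exact permutation test again gave its smallest p, 0.0286, which follows from the lack of overlap. Itga4 (chromosome 2, 79255426 to 79333123, plus strand) shares 1124 exonic bases (8.04%) with Cerkl on the opposite strand, which stood at 6.31 ± 0.172 CPM in the libraries labelled KO and 7.27 ± 0.44 CPM in those labelled WT (SD, n = 4 each; log2 fold change -0.20, SE 0.10, adjusted p = 0.431).

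Tenascin C is a matrix glycoprotein of the developing and injured brain and a ligand of integrins that include alpha 8 beta 1 and alpha 9 beta 1. Tnc stood at 6.26, 6.115, 6.34 and 5.54 CPM in the libraries labelled KO, against 7.57, 7.905, 8.44 and 8.61 CPM in those labelled WT. All 4 values labelled KO lay below all 4 labelled WT. The means were 6.07 ± 0.36 CPM (labelled KO) and 8.13 ± 0.48 CPM (labelled WT; SD, n = 4 each), a fold of 0.745. Tnc fell by 0.43 on the log2 scale (SE 0.10, adjusted p = 0.0441 by edgeR). The exact permutation p of 0.0286 follows here too from the lack of overlap. It missed the threshold without each 1 of the 8 libraries (adjusted p 0.0582 to 0.173) and in DESeq2 (adjusted p = 0.0742), at log2 fold changes between -0.45 and -0.39. Tnc lies on chromosome 4 from 63959785 to 64047015 on the minus strand, and shares no exonic base with another gene of the table.

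Tenascin R (Tnr), made by oligodendrocytes and some neurons, was the more abundant of the tenascins per length and did not pass. It stood at 43.5, 35.9, 40.5 and 43.8 CPM in the libraries labelled KO and at 38.3, 39.3, 39.1 and 43.1 CPM in those labelled WT. These ranges overlapped (log2 fold change 0.03, SE 0.07, adjusted p = 0.896 by edgeR). Per kilobase of transcript, Tnr averaged 3.35 ± 0.30 CPM in the libraries labelled KO and 3.27 ± 0.18 CPM in those labelled WT, and Tnc 0.854 ± 0.051 CPM (labelled KO) and 1.14 ± 0.068 CPM (labelled WT; SD, n = 4 each).

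Among the other integrin alpha subunits, none of 8 passed by edgeR, DESeq2 or limma-voom. An unadjusted p under 0.05 was found for 2 of the 8, against 12.6% of all tested genes. The 2 were Itga11, which with beta 1 forms a receptor for fibrillar collagen, and Itga7, which with beta 1 forms a laminin receptor known best from muscle. Itga11 stood at 2.68, 2.80, 3.22 and 2.94 CPM in the libraries labelled KO, against 1.77, 2.02, 2.20 and 1.94 CPM in those labelled WT. The groups did not overlap, at 21 to 61 counts a library, with a log2 ratio of 0.55 (SE 0.16, edgeR adjusted p = 0.114). Itga7 stood at 26.8, 28.1, 25.6 and 25.6 CPM in the libraries labelled KO, against 31.4, 30.3, 34.2 and 27.9 CPM in those labelled WT, and there the highest KO value lay just above the lowest WT value. Its log2 ratio was -0.22 (SE 0.07, edgeR adjusted p = 0.13).

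The alpha subunits with the highest level per length were those of the laminin receptors. Per kilobase of transcript, Itga3 averaged 7.99 ± 0.28 CPM in the libraries labelled KO and 8.16 ± 0.25 CPM in those labelled WT, and Itga6 averaged 7.48 ± 0.58 CPM (labelled KO) and 7.997 ± 0.53 CPM (labelled WT; SD, n = 4 each). Both differences were within the spread, at log2 fold changes of -0.03 (SE 0.05, adjusted p = 0.872 by edgeR) and -0.11 (SE 0.07, adjusted p = 0.554). Itga8 averaged 0.776 ± 0.145 CPM per kilobase in the libraries labelled KO and 1.33 ± 0.119 CPM in those labelled WT. It was thus below Itga3, Itga6 and Itga7 in both groups. The summed level of the 10 alpha subunits was 142 to 153 CPM in the libraries labelled KO and 156 to 165 CPM in those labelled WT. Without Itga8 and Itga4 the sums were 122 to 134 CPM (labelled KO) and 128 to 139 CPM (labelled WT), and the groups overlapped.

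No integrin beta subunit passed by edgeR, DESeq2 or limma-voom, and none had an unadjusted p under 0.05. Integrin beta 1 (Itgb1), the shared partner of most alpha subunits here, stood at 75.5, 76.1, 77.6 and 76.7 CPM in the libraries labelled KO, against 85.3, 77.8, 81.5 and 81.3 CPM in those labelled WT. The groups did not overlap, although 77.6 and 77.8 CPM lay close to each other. The difference was small, at a log2 fold change of -0.09 (SE 0.04, adjusted p = 0.416 by edgeR). Integrin beta 8 (Itgb8), which pairs with alpha v, had 90.1 ± 4.72 CPM in the libraries labelled KO and 97.4 ± 9.07 CPM in those labelled WT (SD, n = 4 each). Integrin beta 5 (Itgb5), another partner of alpha v, had 64.7 ± 3.28 CPM (labelled KO) and 61.4 ± 2.65 CPM (labelled WT). The leukocyte subunit Itgb2, which microglia carry in the brain, had 6.36 ± 0.91 CPM (labelled KO) and 7.01 ± 1.18 CPM (labelled WT). For these 3 subunits the adjusted p ran from 0.47 to 0.698.

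**Figure D2:**
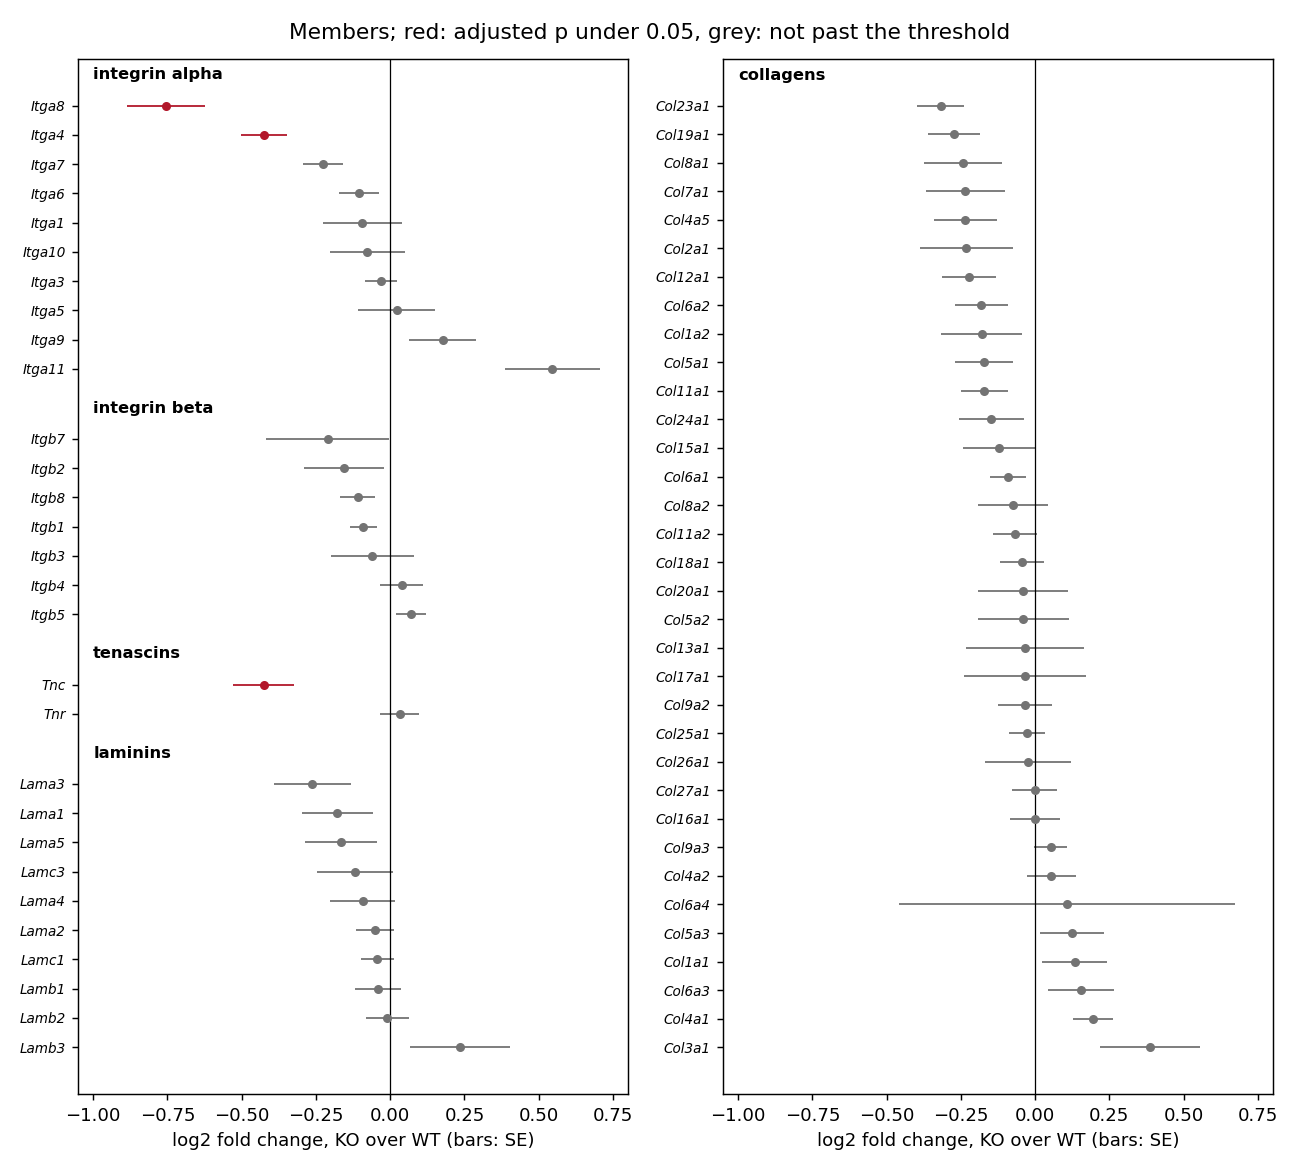
Log2 fold change, KO over WT by label, for the members, grouped by family (points) with SE (bars), from edgeR. Itga8, Itga4 and Tnc are in red as the members past an adjusted p of 0.05, and 48 points lie left of 0. The values of 1 member are not drawn.

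None of the 11 laminin chains passed by edgeR, DESeq2 or limma-voom, and none had an unadjusted p under 0.05. Their median log2 fold change was -0.05, and 9 of the 11 were negative, among them all 5 alpha chains. Lama3, an alpha chain of epithelial laminin, stood at 8.203, 7.45, 7.45 and 10.3 CPM in the libraries labelled KO and at 11.02, 10.7, 10.54 and 7.64 CPM in those labelled WT. In each group 1 library lay with the other group (log2 fold change -0.26, SE 0.13, adjusted p = 0.422 by edgeR). Lamb3, a beta chain of epithelial laminin, had a positive log2 fold change of 0.24 (SE 0.17, adjusted p = 0.615). Lama1, a chain of the earliest basement membranes of the embryo, averaged 4.89 ± 0.27 CPM in the libraries labelled KO and 5.53 ± 0.53 CPM in those labelled WT (SD, n = 4 each; adjusted p = 0.58).

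Chains that many laminins share were the most abundant per length. Lamb2 averaged 5.98 ± 0.46 CPM per kilobase in the libraries labelled KO and 5.98 ± 0.58 CPM in those labelled WT, Lamc1 5.09 ± 0.26 CPM (labelled KO) and 5.23 ± 0.18 CPM (labelled WT), and Lamb1 4.27 ± 0.18 CPM (labelled KO) and 4.42 ± 0.49 CPM (labelled WT; SD, n = 4 each). Their log2 fold changes lay between -0.043 and -0.0097. The alpha chain with the highest level per length was Lama2, the chain that astrocytes give to the basement membrane around vessels, at 2.10 ± 0.052 CPM (labelled KO) and 2.17 ± 0.076 CPM (labelled WT). Summed over the chains, laminins reached 164 to 185 CPM in the libraries labelled KO and 176 to 183 CPM in those labelled WT.

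**Figure D3:**
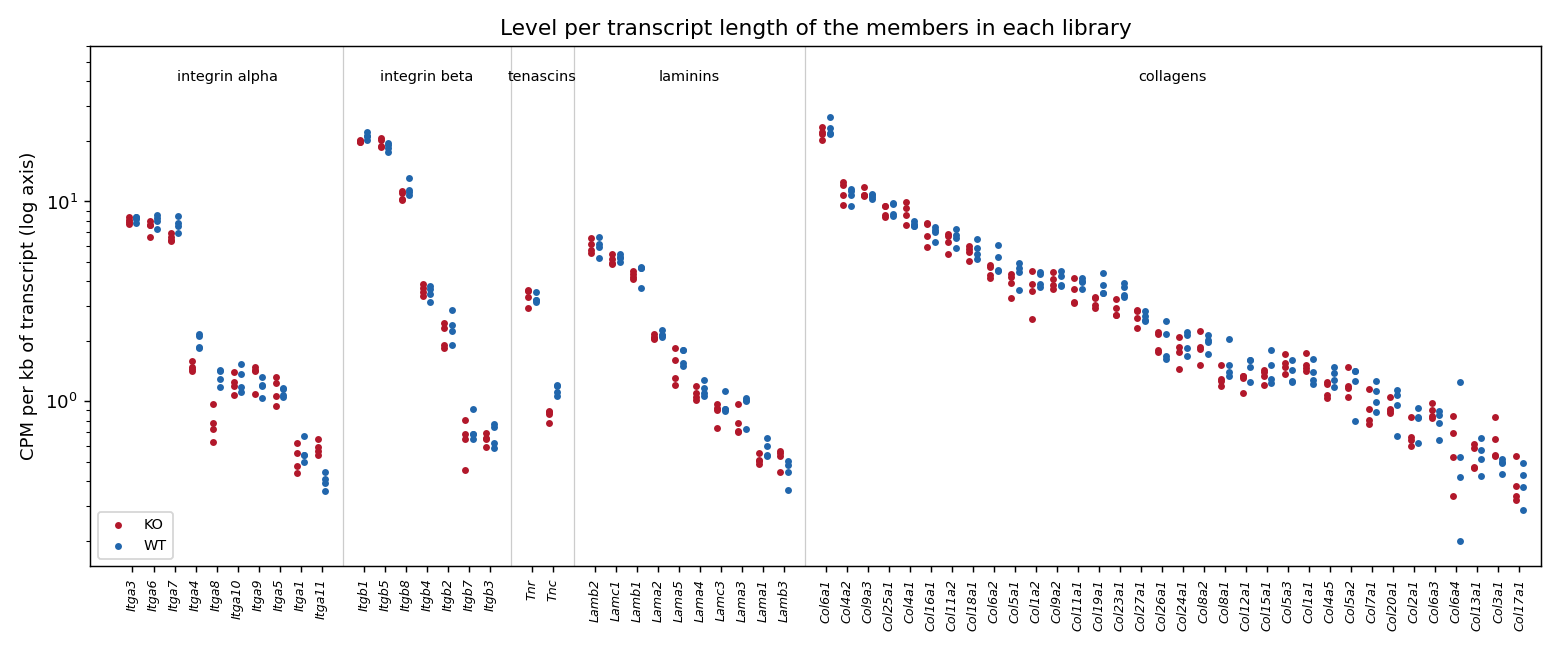
CPM per kilobase of transcript on a log axis for the members (1 is not drawn) in each library, ordered within each family by the mean of the libraries labelled WT, with libraries labelled KO in red on the left of each pair and those labelled WT in blue. Col6a1, Itgb1 and Itgb5 are the highest. Itga4, Itga8 and Tnc rank 30, 42 and 47 among the 64 by the mean of the libraries labelled WT, the group where these 3 are higher.

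None of the 34 collagen chains passed by edgeR, while 7 (20.6%, against 12.6% of all tested genes) had an unadjusted p under 0.05 and Col23a1 was called by DESeq2 and by limma-voom. Collagen XXIII is a transmembrane collagen. Col23a1 stood at 15.4, 16.6, 15.3 and 18.3 CPM in the libraries labelled KO, against 18.8, 22.1, 21.1 and 19.4 CPM in those labelled WT. The groups did not overlap, with the nearest values at 18.3 and 18.8 CPM. Its log2 ratio was -0.32 (SE 0.08, edgeR adjusted p = 0.0529), which made it the member nearest to the threshold on its outer side as Tnc was on its inner side. With GC content and length trends removed it passed (adjusted p = 0.0199), as it did without KO replicate 4 (0.0392) or WT replicate 1 (0.0474), whereas its highest adjusted p without 1 library was 0.211.

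Collagen XIX, a fibril-associated type that interneurons make in the mouse brain, came next. Col19a1 stood at 13.0, 14.3, 12.5 and 13.96 CPM in the libraries labelled KO, against 14.9, 18.6, 16.3 and 14.8 CPM in those labelled WT. The groups did not overlap (log2 ratio -0.27, SE 0.09, edgeR adjusted p = 0.16). Col12a1, another fibril-associated collagen, averaged 14.7 ± 1.29 CPM in the libraries labelled KO and 17.1 ± 1.93 CPM in those labelled WT (SD, n = 4 each; log2 fold change -0.22, SE 0.09, adjusted p = 0.304). Col9a3, of the same class and its highest member per length, averaged 33.5 ± 1.63 CPM (labelled KO) and 32.3 ± 0.88 CPM (labelled WT; adjusted p = 0.771). Counting the groups that did not overlap, 6 members (9.38%) lay lower in the libraries labelled KO and 2 (3.12%) higher, where 3.4% and 4.28% of all tested genes did so, or 7.67% in either direction. The 6 were Itga8, Itga4, Tnc, Itgb1, Col23a1 and Col19a1, and the 2 were Itga11 and Col3a1.

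Of the 3 type IV collagen chains of basement membranes, 2 had positive log2 fold changes and 0 passed by edgeR, DESeq2 or limma-voom. An unadjusted p under 0.05 was found for 2, against 12.6% of all tested genes. Col4a1 and Col4a2, whose products join in the same trimer, start head to head on chromosome 8 and share 22 exonic bases. Col4a1 stood at 65.8, 56.6, 50.5 and 61.6 CPM in the libraries labelled KO and at 50.1, 50.1, 51.0 and 53.0 CPM in those labelled WT, so KO replicate 3 lay among the WT values. Its log2 ratio was 0.19 (SE 0.07, edgeR adjusted p = 0.205), and it passed without KO replicate 3 (adjusted p = 0.0496). Col4a2 stood at 77.6, 69.2, 62.3 and 81.1 CPM in the libraries labelled KO and at 61.1, 69.7, 72.5 and 74.4 CPM in those labelled WT. In the libraries labelled KO both chains were lowest in replicate 3, but Col4a2 did not pass (log2 fold change 0.06, SE 0.08, adjusted p = 0.852). The X-linked Col4a5 had a log2 fold change of -0.23 (SE 0.11, adjusted p = 0.367).

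Fibrillar collagens, the rope-forming types of connective tissue, held no member past the threshold among 11 by edgeR, DESeq2 or limma-voom. Col3a1 and Col11a1 had an unadjusted p under 0.05, as had 12.6% of all tested genes. Col3a1 stood at 4.62, 2.99, 2.96 and 3.61 CPM in the libraries labelled KO, against 2.78, 2.88, 2.40 and 2.72 CPM in those labelled WT. The groups did not overlap, with KO replicate 1 the highest, at a log2 fold change of 0.39 (SE 0.17, adjusted p = 0.347). Col1a2, the partner of Col1a1 in type I collagen, had its lowest value in KO replicate 2, at 13.8 CPM, and its highest in KO replicate 1, at 23.9 CPM. The libraries labelled WT lay between 20.04 and 23.8 CPM. The markers of meningeal and perivascular fibroblasts, which make these fibrils in the brain, had the same highest and lowest library as Col1a2. Their sum was 321, 214, 249 and 256 CPM in the libraries labelled KO and 259 to 290 CPM in those labelled WT, with 12 of 12 markers measured, none at 0, and 0 past the threshold by edgeR, DESeq2 or limma-voom or at an unadjusted p under 0.05. The sum over the 11 fibrillar collagens had other ends, lowest in WT replicate 1 (176 CPM) and highest in WT replicate 2 (204 CPM). The part of the fibroblast markers in the fibrillar collagen values was not tested.

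The highest level per length of any member was that of Col6a1, of the beaded filaments. It averaged 21.9 ± 1.36 CPM per kilobase in the libraries labelled KO and 23.3 ± 2.14 CPM in those labelled WT (SD, n = 4 each; log2 fold change of CPM -0.09, SE 0.06, adjusted p = 0.587). Its partner Col6a2 averaged 4.49 ± 0.33 CPM (labelled KO) and 5.08 ± 0.73 CPM (labelled WT) per kilobase, and Col6a3, the longest chain of the trimer, 0.89 ± 0.071 CPM (labelled KO) and 0.791 ± 0.112 CPM (labelled WT). Col6a4 was the most uneven member, at 3.88, 6.24, 5.13 and 2.47 CPM in the libraries labelled KO and 9.25, 1.47, 3.10 and 3.89 CPM in those labelled WT. Its SE of 0.56 on the log2 scale exceeded its log2 fold change of 0.11 (adjusted p = 0.969). Collagen chains summed to 666 to 747 CPM in the libraries labelled KO and 693 to 758 CPM in those labelled WT.

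Mural cells of vessels, some of which carry alpha 8, had a summed marker level of 174 to 180 CPM in the libraries labelled KO and 181 to 194 CPM in those labelled WT, and these ranges did not overlap. Of 10 mural markers, 0 passed by edgeR, DESeq2 or limma-voom and 1 had an unadjusted p under 0.05, and most of the sum was Rgs5, at 98.6 CPM (labelled KO) and 108 CPM (labelled WT). Log2 fold changes were negative for 6 of the 10 mural markers and positive for 4, among them the smooth muscle genes Acta2 (0.12), Myh11 (0.12) and Tagln (0.09). Endothelial markers summed to 362 to 400 CPM (labelled KO) and 384 to 419 CPM (labelled WT), with 9 of 12 negative and 1 past the threshold, the transporter Slco1c1 (log2 fold change -0.23, SE 0.05, adjusted p = 0.0321 by edgeR). Of the 12, 6 had an unadjusted p under 0.05, all 6 negative, and in 4 (Slco1c1, Tek, Cdh5 and Abcb1a) the libraries labelled KO lay below those labelled WT without overlap. Astrocyte markers summed to 5578 to 6016 CPM (labelled KO) and 5903 to 6011 CPM (labelled WT), with 7 of 10 negative, 0 past the threshold by edgeR or limma-voom, 1 by DESeq2, and 3 at an unadjusted p under 0.05. Beside the counts of these 3 lists, 12.6% of all tested genes had an unadjusted p under 0.05 by edgeR, 6.16% as lower. The libraries labelled KO lay below without overlap in 3.4% of all tested genes, and 0.289% passed the threshold as lower.

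Regional markers were also read. Of 8 markers of the dentate gyrus, Rasl10a rose and Dsp fell by edgeR, where 1.14% of all tested genes passed as higher and 0.289% as lower. Log2 fold changes of the 8 ran from -1.16 to 0.56, with 5 negative and 3 positive. An unadjusted p under 0.05 was found for 3 of the 8. Rasl10a stood at 22.4 ± 2.24 CPM in the libraries labelled KO and 15.2 ± 1.11 CPM in those labelled WT (SD, n = 4 each). Dsp stood at 2.79 ± 0.45 CPM in the libraries labelled KO and 6.23 ± 0.58 CPM in those labelled WT (SD, n = 4 each), while Prox1, a defining factor of granule cells, had 42.5 ± 3.64 CPM (labelled KO) and 44.3 ± 1.14 CPM (labelled WT). In the other 10 marker lists, over 82 tested genes, 0 passed by edgeR or limma-voom, 1 by DESeq2, and 11 (13.4%, against 12.6% of all tested genes) had an unadjusted p under 0.05. Log2 fold changes were positive for 10 of 10 neuronal markers, at a median of 0.082 and with 4 at an unadjusted p under 0.05, and negative for 9 of 10 oligodendrocyte markers. Of the markers found in the table, none was at 0. The part of these cell types and regions in the falls of Itga8, Itga4 and Tnc, and in the share of negative members, was not tested.

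**Figure D4:**
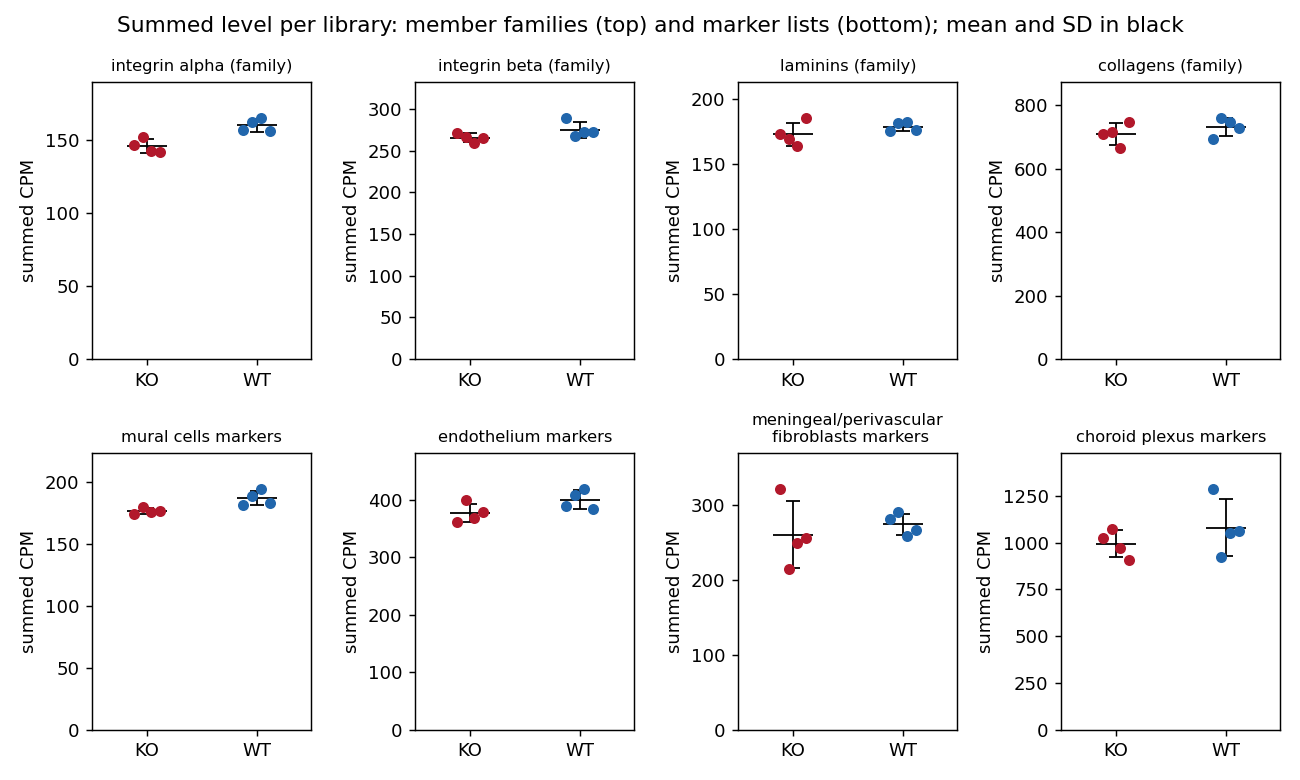
Summed CPM in each library on linear axes from 0 for 4 member families (top) and 4 marker lists (bottom), with the libraries labelled KO in red on the left, those labelled WT in blue on the right, and mean ± SD in black (n = 4 each). The integrin alpha and mural sums do not overlap between the groups, and the fibroblast sum spans 214 to 321 CPM within the libraries labelled KO.

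Of the partner genes of the matrix and adhesion pathway, 160 were listed, 145 were in the table and 142 were tested. Of these, 3 rose, 0 fell and 139 did not pass by edgeR, at a median log2 fold change of -0.011, where 1.14% of all tested genes rose. DESeq2 called 5 and limma-voom 3 of the partner genes, beside 2.35% and 1.55% of all genes. An unadjusted p under 0.05 was found for 31 (21.8%, against 12.6% of all tested genes). Glypican 1 (Gpc1), a heparan sulphate proteoglycan of the cell surface, stood at 118, 121, 113 and 121 CPM in the libraries labelled KO, against 90.7, 104, 96.7 and 96.8 CPM in those labelled WT (log2 fold change 0.28, SE 0.05, adjusted p = 0.00269). The neuronal pentraxin receptor Nptxr was counted here through the list of perineuronal and brain matrix. It averaged 756 ± 33.1 CPM (labelled KO) and 645 ± 29.8 CPM (labelled WT; SD, n = 4 each; log2 fold change 0.23, SE 0.04, adjusted p = 0.00555). Alpha-actinin 1 (Actn1), which ties integrins to actin, averaged 85.7 ± 3.56 CPM (labelled KO) and 71.9 ± 4.28 CPM (labelled WT; log2 fold change 0.26, SE 0.05, adjusted p = 0.0119). With KO replicate 4 left out Actn1 missed (adjusted p = 0.0566), and so it did with WT replicate 3 left out (0.07). In all 3 genes the groups did not overlap. Of the 33 integrin adaptors and signalling genes, 17 had positive and 16 negative log2 fold changes, and 9 had an unadjusted p under 0.05. Without overlap, the libraries labelled KO lay above in 2 (Actn1 and Actn4) and below in 4 (Pxn, Fermt2, Lims1 and Tln1). Of the 18 genes of perineuronal and brain matrix, 9 had positive and 9 negative log2 fold changes, and 5 had an unadjusted p under 0.05. DESeq2 called 2 of them, and edgeR and limma-voom 1 each. Without overlap, the libraries labelled KO lay above in 2 (Nptxr and Hapln4) and below in 1 (Ptprz1). Of all tested genes, 4.28% lay above and 3.4% below in this way.

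None of 29 matrix ligands and basement membrane partners passed by edgeR, DESeq2 or limma-voom. An unadjusted p under 0.05 was found for 3, against 12.6% of all tested genes. Of the alpha 8 ligands named above, Npnt, Fn1 and Vtn overlapped between the groups, unlike Tnc. Nephronectin (Npnt) averaged 19.8 ± 0.37 CPM in the libraries labelled KO and 18.6 ± 1.19 CPM in those labelled WT, fibronectin (Fn1) 51.2 ± 6.81 CPM (labelled KO) and 48.96 ± 2.35 CPM (labelled WT), and vitronectin (Vtn) 55.9 ± 5.90 CPM (labelled KO) and 59.2 ± 6.60 CPM (labelled WT; SD, n = 4 each; adjusted p 0.623 to 0.827). Osteopontin (Spp1) did not overlap between the groups, at 47.5 to 54.7 CPM (labelled KO) and 43.9 to 46.9 CPM (labelled WT; log2 fold change 0.16, SE 0.06, adjusted p = 0.194). Thrombospondin 1 (Thbs1), a matrix glycoprotein, had a log2 fold change of -0.43 (SE 0.17, adjusted p = 0.275). The alpha 4 ligand Vcam1 averaged 30.4 ± 1.27 CPM (labelled KO) and 31.6 ± 2.02 CPM (labelled WT; adjusted p = 0.792).

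Among the other partner lists, the cross-linking and synthesis genes of collagen held none past the threshold of 22 by edgeR, DESeq2 or limma-voom, and 4 at an unadjusted p under 0.05. Their lowest p were those of the procollagen protease Bmp1 (log2 fold change -0.17, SE 0.07, adjusted p = 0.276) and the collagen galactosyltransferase Colgalt1 (-0.13, SE 0.05, adjusted p = 0.284). Of 20 matrix proteases and inhibitors 0 passed by these 3 tools, and 6 had an unadjusted p under 0.05. The share of all tested genes with such a p, for each list of this paragraph, was 12.6%. Gelatinase A, Mmp2, which cleaves type IV collagen, stood at 2.68, 2.17, 1.90 and 2.27 CPM in the libraries labelled KO and at 3.70, 4.23, 3.75 and 2.59 CPM in those labelled WT, overlapping in 1 library each (log2 fold change -0.68, SE 0.18, adjusted p = 0.0691). The protease Adamts1 had -0.27 (SE 0.09, adjusted p = 0.181). Of the integrin subunits outside the name rule, 3 were tested and 0 passed by any of these tools, with 1 at an unadjusted p under 0.05. Itgav, the partner of beta 5 and beta 8, averaged 94.9 ± 9.32 CPM (labelled KO) and 94.8 ± 10.9 CPM (labelled WT; adjusted p = 0.989), and Itgam, the microglial partner of beta 2, 24.1 ± 1.247 CPM (labelled KO) and 27.8 ± 2.07 CPM (labelled WT; SD, n = 4 each; adjusted p = 0.177).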

How the data were processed

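Polyadenylated RNA of mouse brain was measured in 8 libraries. The deposited table holds expected counts per gene, which the authors did not scale between libraries, per the file's values, and 91.5% of values were whole within 0.001. TopHat2 2.0.9, edgeR and the build GRCm38 (mm10) are listed, without role or order, per the submitters' processing notes. The counting program is not given in the sources used here. Expected counts were rounded, filtered with filterByExpr and scaled by TMM, and 15902 genes entered the robust quasi-likelihood model of edgeR 4.0.16 in R 4.3.3, without covariates; p-values were adjusted by Benjamini-Hochberg with a threshold of 0.05. Fold changes are KO over WT, by label. Levels per length used the longest protein-coding transcript of GENCODE M21. Single values were also compared by exact permutation (scipy 1.17.1). Within groups, libraries differed beyond sampling noise (chi-square per degree of freedom 2.46 to 5.04), and all 8 were kept.

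Members, gene lists and tests were chosen with earlier results of these data known. Named genes are Uhrf2, Itga8, Itga4 and Tnc, members past the threshold, the 4 members of each family with the lowest p and the 3 with the highest level per length, and of each partner list those past the threshold or else the 2 with the lowest p. Other genes were named after their values were seen, and 1 member, counted with the rest, is not reported here by its own values. Alternatives were median-ratio and upper-quartile factors, no filter, a filter of more than 1 CPM in 4 libraries, DESeq2 1.42.0, limma-voom (limma 3.58.1), the replicate number as a block, removal of GC content and length trends, both together, and leaving out each library. Leaving out both libraries numbered 1 was added after seeing the data. The test was checked on simulated counts.

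Marker lists besides those described singly in the report were neurons, oligodendrocytes and their precursors, microglia, choroid plexus, ependyma, blood, olfactory bulb, cerebellum, and skin, bone and muscle.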

Additional observations from a re-analysis of the deposited data

Results flagged for a closer look

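Among 86 sets of 4 libraries (the named genes and the summed families, each in either group), 4 held a library far from the other 3, measured as the gap to its nearest neighbour over the whole range. Chance gives about 1 in 20. Col12a1 was low in KO replicate 2 (gap share 0.89), at 12.7 CPM beside 15.1 to 15.4 CPM. Lamb1 was low in WT replicate 3 (0.922), at 21.3 CPM beside 26.7 to 27.2 CPM, and Lama3 was low in WT replicate 4 (0.859), at 7.64 CPM beside 10.54 to 11.02 CPM. Uhrf2 was low in WT replicate 2 (0.851), at 47.7 CPM beside 57.2 to 58.9 CPM. These were 4 different libraries.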

How the results depend on the processing

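Itga8 and Itga4 passed under every alternative, and no alternative turned the sign of a member that passed. Of 681 values of named genes under the alternatives, 646 kept their sign and their side of the threshold. Most of these genes did not pass in the main fit, so this count says little about the genes that passed. A call was lost in 12 values, all of Tnc or Actn1, and gained in 14, and the sign turned in 9. The labels do not state whether the replicate numbers pair the samples, and these values do not settle it. Correlations of deviations from the group means were 0.208, 0.0772, 0.0245 and 0.0673 between libraries of the same number, for numbers 1 to 4. Numbers 1 and 4 correlated best with their own number, and 2 and 3 did not. For number 1 the highest correlation with another number was -0.0424. With the replicate block, 347 genes were called higher and 148 lower, against 182 and 46, and with the block and GC and length trends removed, 401 and 146. Members called lower were 6 with the block and these trends removed (Itga7, Col5a1 and Col23a1 besides). Partner genes were 5 higher and 2 lower with the block, 5 and 2 with the trends removed, 6 and 2 with both, and 1 was lower in DESeq2. Leaving out 1 library gave 96 to 247 higher and 14 to 77 lower genes (fewest without WT replicate 3, most without KO replicate 2), 0 to 1 higher and 2 to 3 lower members, and 2 to 4 higher and 0 to 2 lower partner genes. Without both libraries numbered 1, 18 genes were lower, and Tnc missed (adjusted p = 0.0749). Signs near 0 turned for 4 genes: without 1 library, Tnr ranged from -0.0014 to 0.091, Lamb2 from -0.059 to 0.050, Col4a2 from -0.0032 to 0.13 and Itga2b from -0.052 to 0.20, and without both numbered 1, Tnr had -0.011 and Col4a2 -0.029 (log2 fold changes). The causes were not tested. Members at few counts, down to 16 a library in Col13a1, are limited by depth.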

Other observations

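Chosen after its values were seen, the transmembrane collagen Col25a1 split by library number in both groups. It stood at 63.2, 56.2, 57.2 and 63.7 CPM in the libraries labelled KO and at 65.3, 56.7, 57.7 and 65.5 CPM in those labelled WT, for numbers 1 to 4. Its log2 ratio between the groups was -0.03 (SE 0.06, edgeR adjusted p = 0.906). The number is not tied to a batch in the labels.

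Besides Col4a1 and Col4a2, pairs of members within 200 kb of each other included Col3a1 with Col5a2, Col6a2 with Col6a1 and Col1a1 with Itga3. In these pairs the log2 fold changes were 0.39 and -0.04, -0.18 and -0.09, and 0.13 and -0.03, so 2 of these 3 pairs differed in sign, and none of the genes passed.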
